A study of Saccharomyces cerevisiae with 8 samples.

Results

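The mitochondrial ribosome of Saccharomyces cerevisiae translates the few mRNAs of mitochondrial DNA, nearly all of them for subunits of the respiratory chain and ATP synthase. Its small subunit reads the mRNA and holds the decoding centre. Almost all of its proteins are encoded in the nucleus, made in the cytosol and imported, so their mRNAs are measured with the other nuclear transcripts. The genes described here are those whose platform symbol starts with RSM or MRPS followed by a number, together with MRP1, MRP2, MRP4, MRP10, MRP13, MRP17, MRP21, MRP51, PET123, NAM9 and SWS2. The rule gave 31 of the 5449 S. cerevisiae genes on the array, each with 1 probe set, and all 31 were above background and tested.

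The mRNAs came from 8 independent cultures of strain DBY7286, 4 with 10 µM ferrous iron (low iron) and 4 with 300 µM (high iron). Every culture was grown in defined minimal medium with 1 mM Ferrozine, a chelator of ferrous iron, 1 µM copper and 25 mM MES at pH 6.1. Growth took about 18 h at 30 °C and ended in mid-log phase, at an A600 of 0.5, and each culture was hybridised to 1 Affymetrix yeast array. The only comparison in the design is low against high iron, which asks how gene expression differs when iron is scarce. With the chelator in all cultures, the comparison is between supplied iron levels and includes no medium without it.

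Values are MAS5 signals, a brightness per probe set in arbitrary units that was scaled to a common trimmed mean of 500.2 on every array. A change is the difference of the mean log2(signal + 1) between low and high iron, and adjusted p-values come from limma with Benjamini-Hochberg adjustment over all 5412 genes tested. The iron labels were checked on 2 known iron-responsive genes, which moved in their known directions. FET3, the ferroxidase of iron uptake, read 4930 ± 430 in low and 1962 ± 147 in high iron, and CCC1, the vacuolar iron importer, 303.4 ± 20.8 and 1034 ± 72.2 (SD, n = 4). The array also holds Schizosaccharomyces pombe probe sets, 20 of them for genes that bear the names of these small subunit genes. No such S. pombe probe set read above 12.7 on any array, whereas the lowest S. cerevisiae value among the 31 genes was 188 and the highest 2396. The top signals of the arrays, 6597 to 7706, lay well above that highest value.

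Small subunit genes were lower in low iron. Of the 31 genes 26 fell and none rose at an adjusted p under 0.05, where 22.7% of all tested genes fell and 16.8% rose. All 31 fitted changes were negative, from -1.01 for MRP2 to -0.05 for RSM25, and 5 genes did not pass. The median change was -0.36, a ratio of 0.778 of low over high iron, while the median of all tested genes was -0.02 and their quartiles were -0.23 and 0.14. The 4 low-iron values lay below all 4 high-iron values in 24 of the 31 genes, as they did in 21.8% of all tested genes. In bulk RNA, fewer cells that express a gene and less RNA per cell cannot be told apart.

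**Figure D1:**
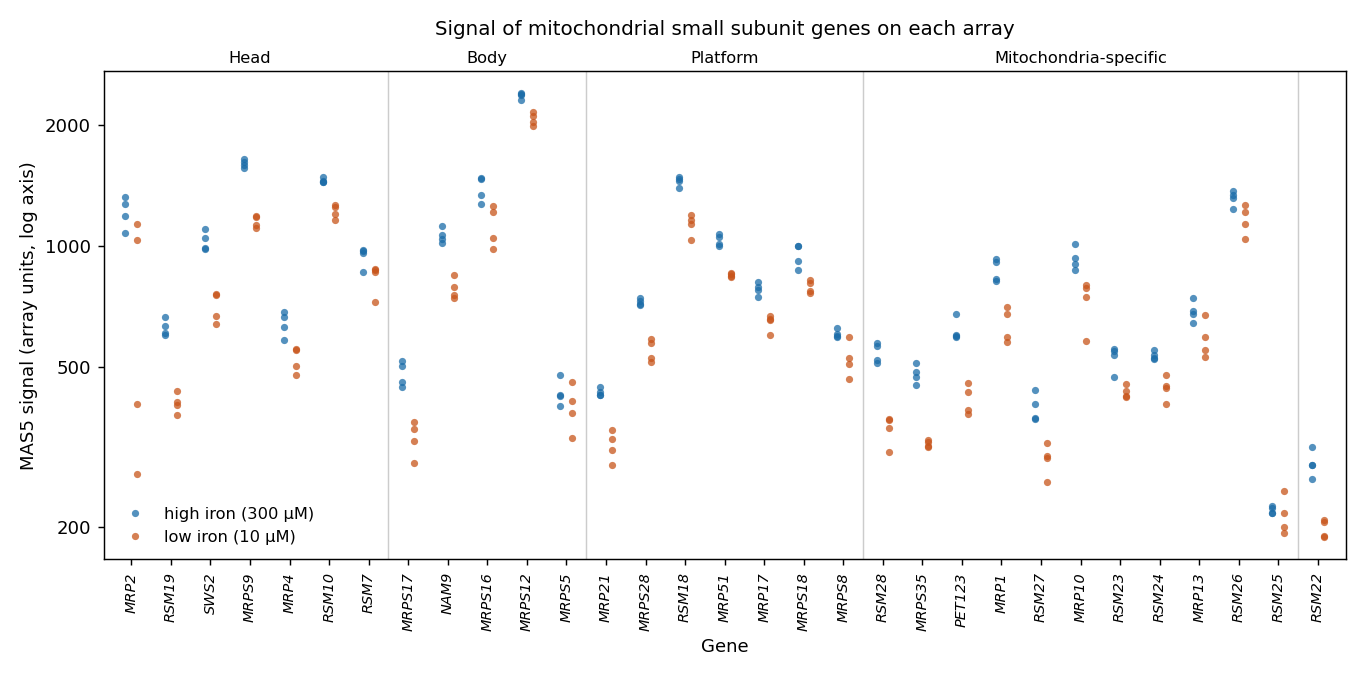
MAS5 signal (log axis) of each of the 31 small subunit genes on every array, with blue points for the 4 high-iron and orange points for the 4 low-iron arrays, in order of position in the ribosome, RSM22 last. In 24 genes all orange points lie below all blue points, and MRP2 has 2 low-iron points far below the others.

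The head of the small subunit carries tRNA through its cycle together with the large subunit, and 7 genes encode its bacterial-type proteins. Of these, 5 fell, and their median change was -0.48. RSM19, the counterpart of bacterial S19, read 435, 380, 401 and 408 in low iron and 599, 631, 665 and 606 in high iron. Every low-iron culture lay far below every high-iron culture, a change of -0.62 ± 0.0644 (SE; limma adjusted p = 4.74e-05). SWS2, the counterpart of S13, read 671, 639, 756 and 760 in low iron against 1104, 985, 1046 and 983 in high iron. Again the groups stood apart, with a change of -0.55 ± 0.0736 (limma adjusted p = 2.72e-04).

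The remaining head proteins spread widely. MRPS9, the counterpart of S9, fell by 0.48, with 4 low-iron values that differed little (1150 ± 39.1; SD, n = 4) against 1604 ± 37.2 in high iron. MRP4 (-0.29) and RSM10 (-0.26), the counterparts of S2 and S10, fell too. RSM7, the counterpart of S7, which in bacteria is an early binder of the head's rRNA, read 869, 725, 877 and 860 in low iron and 976, 959, 861 and 969 in high iron. High-iron array 3 fell within the low-iron range, and the change of -0.18 did not pass (limma adjusted p = 0.0844). Without low-iron array 2, the lowest of its group, the change was -0.11 (adjusted p = 0.197).

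MRP2, the counterpart of S14, varied most among the low-iron cultures. It read 405, 1036, 1134 and 271 on the 4 low-iron arrays and 1189, 1321, 1269 and 1077 on the high-iron arrays. Low-iron arrays 1 and 4 were far below all other arrays, low-iron array 2 was just under the high-iron range and array 3 was inside it. Its fitted change of -1.01 was the lowest of the 31 but had an SE of 0.395 and did not pass (limma adjusted p = 0.0652). Without low-iron array 2 the change was -1.28 (adjusted p = 0.0346) and without array 3 -1.32 (0.0151), whereas without array 1 it was -0.83 (0.126) and without array 4 -0.63 (0.132). The SD of log2 signal among the low-iron arrays was 1.02 for MRP2, and the next largest among the 31 genes was 0.21, for MRP10.

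The body holds much of the decoding centre, and 4 of its 5 genes fell, with a median change of -0.31. When low-iron arrays 1 and 2 were left out, 3 fell and the median was -0.18. MRPS17, the counterpart of the rRNA-binding protein S17, read 481 ± 33.9 in high iron and 332 ± 33.3 in low iron (SD, n = 4) and fell by 0.54 (limma adjusted p = 8.25e-04). NAM9, the counterpart of S4, in which mutations alter the accuracy of mitochondrial translation, fell by 0.44 from 1061 ± 44.7 to 782 ± 48.2. MRPS16, the counterpart of S16, fell by 0.31, but did not pass in 4 of 18 alternative settings, with an adjusted p of up to 0.0995. MRPS12, the counterpart of the decoding protein S12, read 2367 ± 41.5 in high and 2070 ± 73.6 in low iron (SD, n = 4). Its change of -0.19 was the smallest among the genes that passed, and the groups did not overlap (limma adjusted p = 0.00583).

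MRPS5, the counterpart of S5, was the body gene that did not pass. It read 333, 384, 411 and 457 in low iron and 478, 399, 425 and 423 in high iron, so that low-iron array 4 exceeded 3 of the 4 high-iron arrays. Its change was -0.13 with a 95% confidence interval of -0.35 to 0.09 (limma adjusted p = 0.336). When low-iron arrays 1 and 2 were left out, the change was 0.01.

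All 7 platform genes fell, with a median change of -0.29. The platform binds the mRNA as it leaves the decoding centre. MRP21 and MRP51 both came from genetic work on the translation of mitochondrial mRNAs for cytochrome oxidase subunits. MRP21, the counterpart of S21, read 433 ± 10.1 in high and 318 ± 26.9 in low iron, a change of -0.44 (SD, n = 4; limma adjusted p = 8.26e-04). MRP51 read 1033 ± 35.9 in high and 847 ± 8.40 in low iron (SD, n = 4), a change of -0.29 (limma adjusted p = 0.00137). The low-iron values of MRP51 covered only 838 to 857, the tightest group in relative terms of all small subunit genes.

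The other 5 platform genes also had negative changes. MRPS28 (-0.40) and RSM18 (-0.36), the counterparts of S15 and S18, and MRP17 (-0.28) and MRPS18 (-0.26), those of S6 and S11, fell. MRPS8, the counterpart of S8, read 594, 466, 525 and 508 in low iron and 602, 593, 624 and 595 in high iron. Its highest low-iron value was just above its lowest high-iron value, and its change of -0.21 was close to the threshold (limma adjusted p = 0.0473). That call ended in 9 of 18 alternative settings, with an adjusted p of up to 0.117.

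**Figure D2:**
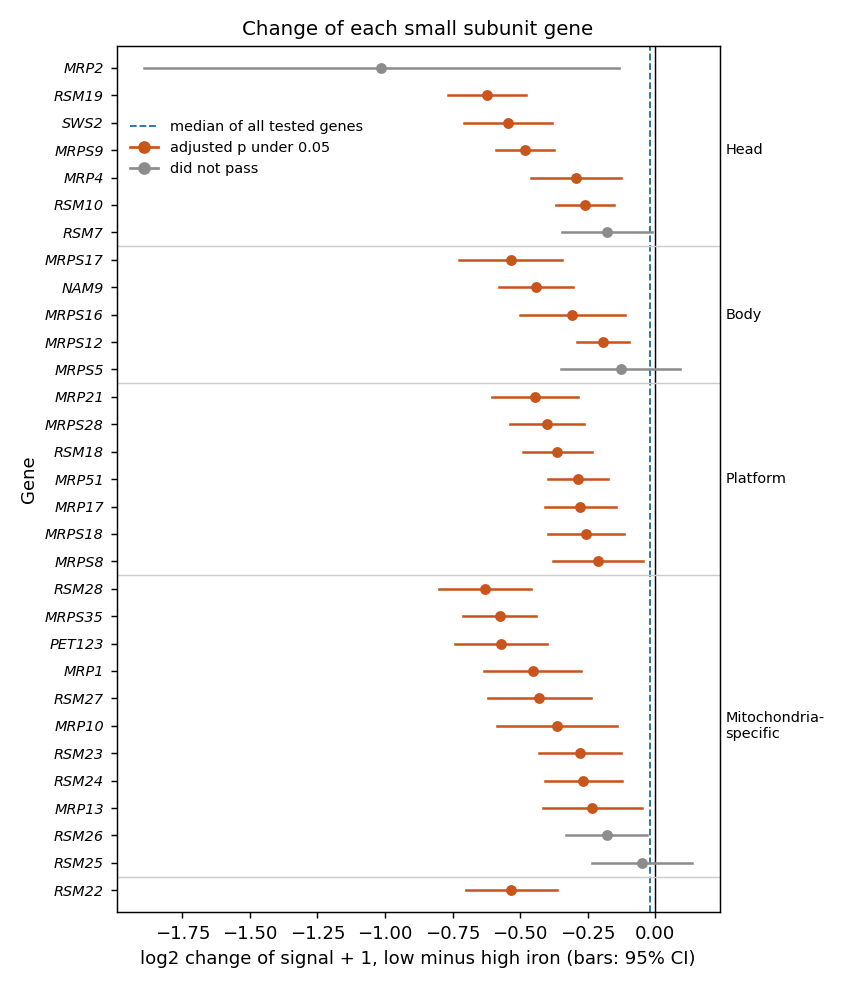
Change of each gene in low against high iron on the log2(signal + 1) scale, with bars for the unadjusted 95% confidence interval of the limma fit, orange where the adjusted p was under 0.05 and grey where it was not. Every point lies left of 0, and MRP2 has by far the widest interval, from -1.89 to -0.13.

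Proteins with no bacterial counterpart are encoded by 11 of the 31 genes, and 9 of these 11 mitochondria-specific genes fell, with a median of -0.36. RSM28, which has been linked genetically to translation initiation, read 352, 308, 369 and 372 in low iron and 563, 520, 512 and 572 in high iron. The 2 groups were well apart, and its change of -0.63 ± 0.0770 was the largest fall among the 26 genes that passed (SE; limma adjusted p = 1.42e-04). MRPS35 read 325, 316, 318 and 328 in low iron against 512, 485, 473 and 450 in high iron. The 4 low-iron cultures were nearly equal, and the change was -0.58 (limma adjusted p = 5.43e-05).

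PET123 read 382, 390, 455 and 433 in low iron and 676, 597, 593 and 599 in high iron. High-iron array 1 stood above the other high-iron arrays, and all low-iron arrays were lower, for a change of -0.57 (limma adjusted p = 2.63e-04). RSM27 (-0.43) and RSM24 (-0.27) fell as well.

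MRP1 and RSM26 are both relatives of the iron and manganese superoxide dismutases that serve as structural proteins of the ribosome. MRP1 read 575, 592, 704 and 676 in low iron and 910, 816, 827 and 930 in high iron. The groups did not overlap, and the change was -0.45 (limma adjusted p = 0.00153). RSM26 read 1261, 1041, 1136 and 1211 in low iron and 1335, 1238, 1370 and 1313 in high iron. Low-iron array 1 lay within the high-iron range, and the change of -0.18, with a 95% confidence interval of -0.33 to -0.03, did not pass (limma adjusted p = 0.0578). Without low-iron array 1 it passed (adjusted p = 0.0236). Whether the changes of MRP1 and RSM26 differ from each other was not tested.

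MRP10, a small protein with the twin cysteine motif of substrates of the mitochondrial disulfide relay, read 784, 581, 746 and 797 in low iron and 1009, 933, 871 and 902 in high iron. Low-iron array 2 was well below the other low-iron arrays, and the change was -0.36 (limma adjusted p = 0.0160). RSM23, the relative of the human GTP-binding protein DAP3, read 434, 454, 423 and 421 in low iron and 553, 471, 534 and 547 in high iron. All low-iron values were lower, and the change was -0.28 (limma adjusted p = 0.00849).

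MRP13 read 673, 594, 528 and 552 in low iron and 741, 644, 676 and 688 in high iron. Low-iron array 1 overlapped the high-iron range, and the change of -0.23 passed narrowly (limma adjusted p = 0.0470), a call that ended in 10 of 18 alternative settings. RSM25 read 246, 216, 200 and 193 in low iron and 222, 216, 217 and 225 in high iron. Here low-iron array 1 was the highest of all 8, and the change was -0.05 with a 95% confidence interval of -0.23 to 0.14 (limma adjusted p = 0.670). That unadjusted interval does not reach the median change of the 31 genes, -0.36, but RSM25 was picked as the highest of them. Without low-iron array 1 its change was -0.12 (limma adjusted p = 0.220), and over all alternatives it ranged from -0.16 to 0.02.

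RSM22, a methyltransferase-like protein needed for mitochondrial translation, was treated apart from the structural proteins. It read 206, 190, 208 and 188 in low iron and 315, 285, 262 and 286 in high iron. The groups were clearly separate, with a change of -0.53 (limma adjusted p = 3.83e-04). The genes of small subunit proteins whose names lie outside the rule were lower too. EHD3 (-0.34), FYV4 (-0.31) and QRI5, also called COX24 (-0.44), all fell (limma adjusted p = 0.00400, 0.0210 and 0.0126), and the call of FYV4 ended in 5 of 18 alternative settings (adjusted p up to 0.0851). VAR1, which mitochondrial DNA encodes, was not analysed here.

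**Figure D3:**
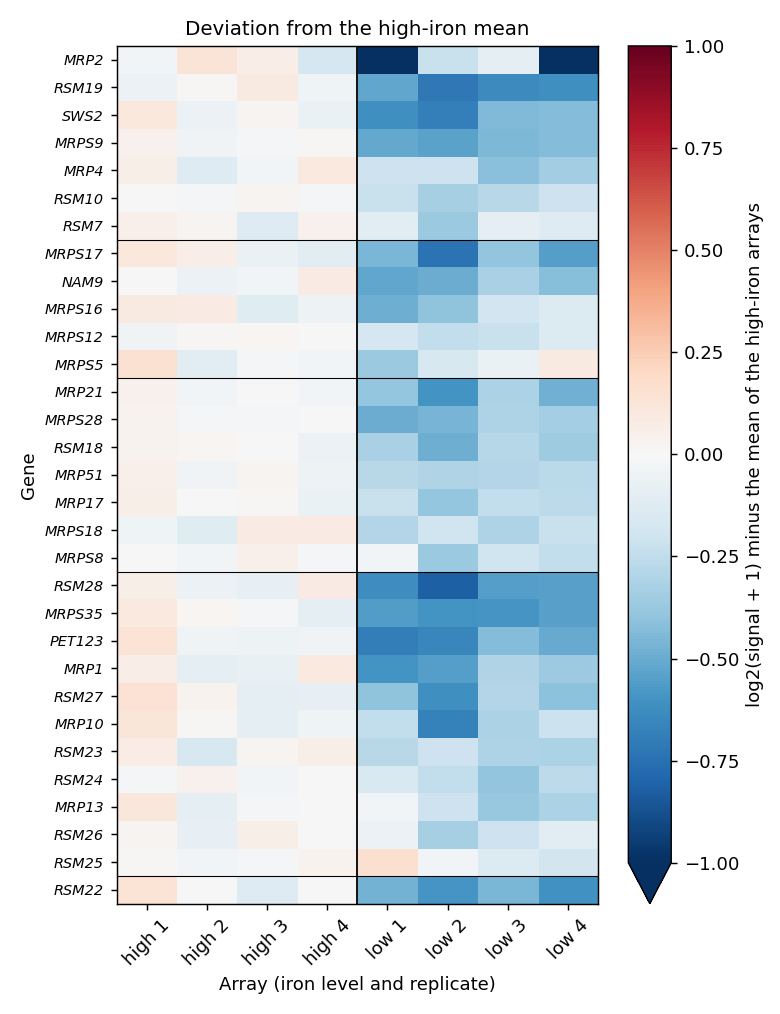
Log2(signal + 1) of each gene on each array minus the mean of that gene's 4 high-iron arrays, blue where lower, with the 31 genes in rows and the arrays in columns and the colour scale ending at 1 in each direction. The low-iron columns are blue in nearly every row, and low-iron arrays 1 and 4 of MRP2 lie beyond the scale.

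The 4 low-iron cultures were alike in the median shift, though single genes varied more between them. The median deviation of the 31 genes from their high-iron means was -0.37, -0.41, -0.31 and -0.34 on low-iron arrays 1 to 4, and between -0.02 and 0.05 on the high-iron arrays. On low-iron arrays 2 and 3 all 31 genes lay below their high-iron mean, and on arrays 1 and 4, 30 did, the exceptions being RSM25 and MRPS5. Low-iron array 2 gave the lowest of the 4 low-iron values in 17 genes, and array 3 the highest in 11. MRPS16 deviated by -0.49, -0.41, -0.19 and -0.14 on low-iron arrays 1 to 4, and RSM24 by -0.16, -0.25, -0.40 and -0.27. The median deviation of all tested genes on the low-iron arrays stayed between -0.03 and 0.003.

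Some measures of the arrays moved with iron as well. The median signal of 17 S. cerevisiae rRNA control probe sets was 2567 to 3707 on low-iron and 3744 to 4321 on high-iron arrays. The ratio of 3′ to 5′ probe sets, a measure of RNA integrity and labelling, was 1.07 to 1.13 in low iron and 1.20 to 1.41 in high iron for TDH1, and 1.15 to 1.26 and 1.21 to 1.30 for ACT1. Their part in the shifts of the small subunit genes was not tested. 

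Other genes of mitochondrial translation were counted in the same fit, in which 22.7% of all tested genes fell and 16.8% rose. Of 45 genes for large subunit proteins 30 fell and none rose, with a median change of -0.31. The lowest adjusted p-values among them were those of MRPL27 (-0.60), MRPL7 (-0.57) and RML2 (-0.46). Of 14 activators, which help the ribosome to translate single mitochondrial mRNAs, 11 fell and none rose, with a median of -0.29. CBP6, which acts in cytochrome b synthesis, read 575 ± 45.7 in high and 243 ± 45.01 in low iron, 2.39-fold lower (SD, n = 4; limma adjusted p = 3.34e-05). PET54 (-0.46) and PET494 (-0.41), activators of COX3 mRNA translation, fell as well.

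Of 9 general translation factors 5 fell, with a median of -0.22, among them the elongation factor genes MEF1 (-0.59) and MEF2 (-0.40) and the initiation factor gene AIM23 (-0.66). Of 6 genes for mitochondrial transcription, RNA turnover and assembly of the small subunit, 4 fell, among them CCM1 (-0.49), which acts in maturation of the small subunit rRNA, and MTF1 (-0.39) and RPO41 (-0.30) of the mitochondrial RNA polymerase. Only 2 of the 6 fell under quantile normalization, under median centring, and without low-iron array 2 or high-iron array 1, 2 or 4. The call of RPO41 ended in 8 of 18 alternative settings, with a change of -0.13 without low-iron arrays 1 and 2. Genes for tRNA charging were mixed, with 6 of 16 lower (37.5%) and 2 higher and a median of -0.14. Among all tested genes, 22.7% were lower and 16.8% higher, so a mix of directions is not particular to this list. Without high-iron array 3, or without high-iron array 4, 3 were lower and none higher. MSF1 (-0.48), SLM5 (-0.65) and MST1 (-0.37) fell.

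Few genes for the small subunit of the cytosolic ribosome, the counterpart outside mitochondria, passed the test. Of 52 tested 2 fell (3.85%) and 1 rose, where 22.7% of all tested genes fell and 16.8% rose. The median change was 0.03, against 26 of 31 lower and a median of -0.36 for the mitochondrial small subunit. RPS9A rose by 0.54, and RPS10A (-0.25) and RPS10B (-0.44) fell. Many cytosolic genes are near-identical pairs that probe sets may not tell apart, and 40 of the 52 had a mean signal over 4000, nearer the top of the signal range, where changes can be compressed. The median change was 0.04 for these 40 and -0.04 for the 12 dimmer genes, of which 1 fell and 1 rose. The calls of RPS10A and RPS10B ended in 6 and 7 of 18 alternative settings. Without low-iron array 3, 14 of the 52 cytosolic genes rose and 4 fell, and under quantile normalization 6 fell, while the median stayed between -0.04 and 0.07 over all alternatives. Whether the lists differ from one another was not tested.

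**Figure D4:**
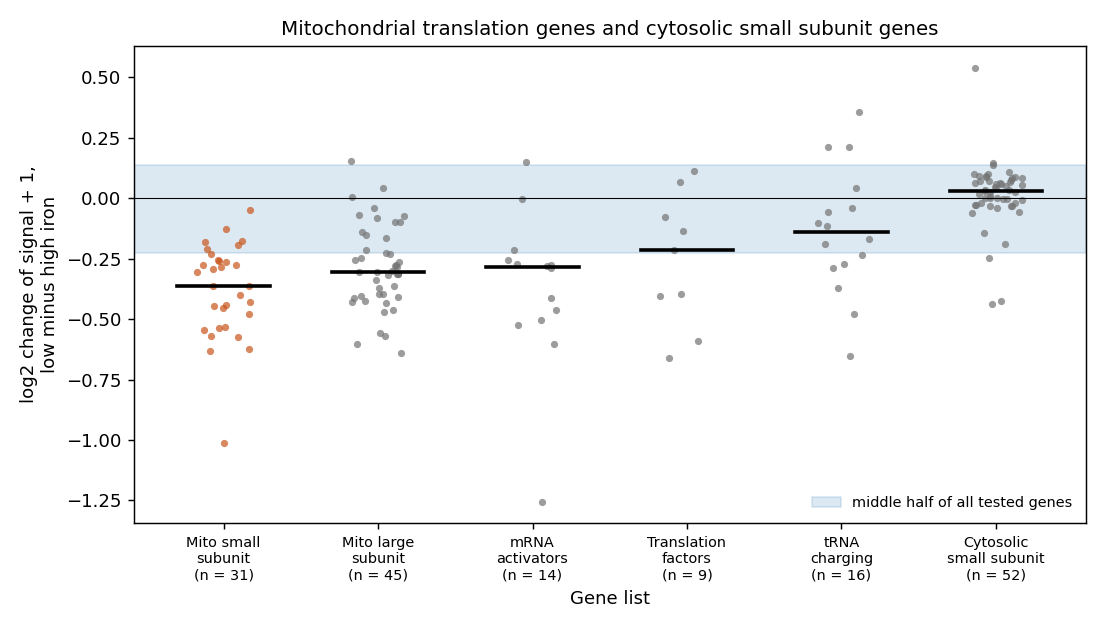
Change of each gene on the log2(signal + 1) scale, low minus high iron, for 6 gene lists, with a black bar for each list's median and a blue band between the quartiles of all tested genes (-0.23 and 0.14). The medians of the mitochondrial small subunit (-0.36), the large subunit (-0.31) and the mRNA activators (-0.29) lie below the band. Those of the translation factors (-0.22), tRNA charging (-0.14) and the cytosolic small subunit (0.03) lie within it.

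Regulators known for genes of mitochondrial or ribosomal proteins changed in different directions. HAP4, the limiting activator subunit of the complex that drives respiratory genes, fell by 0.97 (limma adjusted p = 0.0330). It read 1066 ± 77.5 in high iron and 600 ± 273 in low iron (SD, n = 4), with a wide spread in the latter. Its call ended in 5 of 18 alternative settings (adjusted p up to 0.0812), and without low-iron arrays 1 and 2 the change was -0.39. HAP2, another subunit, fell by 0.31, and HAP5 and HAP3 had changes of -0.07 and -0.04 that did not pass. HAP1, the haem-responsive activator, rose by 0.90. TIS11, which promotes decay of mRNAs for iron-using pathways, rose by 3.39, and its relative CTH1 fell by 0.48.

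PUF3, an mRNA-binding protein known to bind transcripts for mitochondrial ribosomal proteins, was dim and did not pass, at 67.2 ± 7.11 in low and 55.9 ± 8.24 in high iron (limma adjusted p = 0.115). SFP1, FHL1 and IFH1, regulators of cytosolic ribosomal protein genes, had changes of -0.13, 0.10 and -0.12 that did not pass either. The call changed in 2 of 18 alternative settings for SFP1, in 1 each for PUF3 and IFH1 and in none for FHL1. IFH1 spread widely in low iron, at 533, 841, 1120 and 1094, and its change ranged from -0.25 to 0.24 over the alternatives.

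The genes just upstream of the small subunit genes moved both ways. Of 28 such neighbours tested 7 fell and 5 rose, where 22.7% of all tested genes fell and 16.8% rose. In the RefSeq gene table of assembly R64, used here only for gene order, 19 of the 31 genes have their upstream protein-coding neighbour on the opposite strand. Distance and overlap within these pairs were not examined, so a shared upstream region was not shown. Of the 17 such neighbours tested 2 fell, 3 rose and 12 did not pass, with a median change of -0.0003. Of 11 tested upstream neighbours on the same strand 5 fell and 2 rose. RSM19, itself among the 31 genes, is counted in these 5 and in the 7 above. MRX8 (-0.45) beside MRPS28, MZM1 (-0.28) beside RSM28 and RSM19 (-0.62) beside MRPS12 fell along with the small subunit gene, while ADH5 (0.59) beside MRPS9 and NPC2 (0.26) beside MRP10 rose; these names were chosen after their values were seen. MET16 (-0.43) and SPO23 (-0.75) fell beside MRP2 and MRPS5, which did not pass.

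Single pairs showed opposite or like changes. MRP21 fell by 0.44 while its neighbour MAP2, a methionine aminopeptidase gene, rose by 0.61 (limma adjusted p = 0.00311), reading 888 ± 103 in high and 1361 ± 229 in low iron (SD, n = 4). MRPS17 fell by 0.54 while GCV2, the glycine decarboxylase gene beside it, rose by 0.28 (limma adjusted p = 0.00419). GCV2 was bright, at 4457 in low iron, and whether its change was compressed was not tested. MRPS8 (-0.21) and its neighbour AIM36 (-0.26) both fell. Beside 2 genes that did not pass, RSM25 and RSM26, YIL092W rose by 0.39 and AIM25 fell by 0.36.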

How the data were processed

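The authors deposited 1 linear MAS5 signal intensity per probe set and array. MAS5 is named in the submitters' processing notes, and its version and settings are not given in the sources used. The mean after trimming 2% at each end was 500.2 on each array, so the authors' intensity values share a scale, and a change in total mRNA per cell would not show. Probe sets were named through the platform's gene identifiers and the RefSeq gene table (R64). Genes were tested when their mean signal exceeded 5.48, the 95th percentile of 1746 probe sets with other identifiers, mostly in the S. pombe style, which left 5412 of 5449 genes. A gene with several probe sets was represented by the brightest.

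Low and high iron were compared on log2(signal + 1) with limma 3.58.1 in R 4.3.3 (two-sided; lmFit, then eBayes with a trend in intensity), fitted to all 8 arrays, with Benjamini-Hochberg adjustment and a threshold of 0.05. Confidence intervals are at 95% and unadjusted. In simulated data with 200 changed genes among 5412, the procedure recovered 9% of log2 changes of 0.25, 77.5% of changes of 0.5 and 98.5% of changes of 1. The real data held more calls, 1226 genes lower and 907 higher, so the adjustment was less strict than in the simulation. The simulated rates are therefore not rates for these data. Precision is limited by the number of arrays, 4 per condition. Figures were drawn with matplotlib 3.10.9.

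The genes and lists were chosen with earlier results of these data known, so their directions are not independent evidence. Values per array are given for the 6 lowest and 4 highest changes, for genes whose groups overlap and for MRP1, RSM26, MRP10, RSM23 and RSM22. From other lists, up to 3 genes with the lowest adjusted p and all regulators are named, and divergent neighbours that passed. Alternatives were median centring, quantile normalization, pseudocounts of 16 and 64, no filter, a filter at the 99th percentile, no trend, array weights, the mean of probe sets, and leaving out each array or low-iron arrays 1 and 2, which an earlier analysis found to stand apart. No sequences were used here.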

Additional observations from a re-analysis of the deposited data

Results flagged for a closer look

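Of 62 groups of 4 arrays (31 genes, 2 iron levels), 3 held an array whose gap to its nearest neighbour took more of the group's range than Dixon's 95% critical value allows, and chance alone gives about 1 in 20. PET123 on high-iron array 1 read 675.8, the highest of its group, with a gap of 0.923 of the range. RSM7 read 725.4 on low-iron array 2, the lowest of that group (0.884), and 860.9 on high-iron array 3, the lowest there (0.852).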

How the results depend on the processing

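Under the 18 alternatives the number of small subunit genes that fell was 23 to 27 when single arrays were left out and 24 to 28 under the other settings, against 26 in the main analysis, and no gene rose under any. Their median change ranged from -0.38 to -0.32 when single arrays were left out (-0.32 without low-iron array 2 or high-iron array 1) and from -0.36 to -0.33 otherwise, with -0.33 under quantile normalization and median centring. Of the 26 genes, 23 fell under every alternative. Both filter settings and the mean of probe sets could not move these changes, since each gene has 1 probe set far above background. Those settings therefore add little to the counts of alternatives. MRP13, MRPS8 and MRPS16 lost their call in 10, 9 and 4 of 18, MRPS16 with an adjusted p of 0.0995 without low-iron arrays 1 and 2. MRP2 gained a call in 3 and RSM26 in 2, both with array weights among them (adjusted p = 0.0416 and 0.0286). The changes of genes that had not passed turned sign under 2 of them, RSM25 to 0.0168 under quantile normalization and MRPS5 to 0.0119 without low-iron arrays 1 and 2; the cause was not tested. All 31 genes lay far above background. What 4 arrays a group could show differed by gene with its spread. MRPS12 passed at a change of -0.19 (SE 0.0437), while MRP2 did not at -1.01 (SE 0.395). No paired analysis was possible because the labels give the cultures of the 2 iron levels no shared replicate numbers.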

Other observations

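The split of MRP2 among the low-iron cultures was uncommon on these arrays. Of 4918 genes with a mean signal over 100, 10 including MRP2 had an SD of log2 signal among the low-iron arrays of 1.02 or more, where the median SD was 0.12. In 2 of these 4918 genes both low-iron arrays 1 and 4 read less than 50% of the lower of arrays 2 and 3. They were MRP2 and YAR009C, an open reading frame of a Ty1 transposon, chosen after its values were seen. YAR009C read 75.9, 320.2, 327 and 83.9 on low-iron arrays 1 to 4, and 343, 436, 169 and 168 on the high-iron arrays. Among the high-iron arrays MRP2 showed no such split, with an SD of 0.13.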
